A study of Mus musculus with 6 samples.

Results

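The deposited file of new long non-coding RNAs (lncRNAs) held 8040 assembled transcripts, and 709 of them carried a reading frame of the length of a micropeptide. A transcript was taken as a member when its longest frame from an AUG to a stop codon had 80 to 99 codons, counting the start codon and not the stop codon, in any of the 3 frames of the deposited sequence. A second condition required that the reverse complement held no frame of 100 codons or more. The transcripts came from brain cortex of adult male wild-type C57BL/6 mice (C57BL/6 J in the study's methods), 3 control libraries from mice operated on without vessel perforation and 3 libraries taken 24 h after subarachnoid hemorrhage (SAH) induced by endovascular perforation. Each library was made from the pooled cortex of 3 mice. Each transcript was deposited once, as a sequence with a predicted secondary structure and its free energy, for all 6 libraries together. The values below therefore describe transcripts and not libraries, the control and SAH groups were not compared, and no test was run. Transcripts are not replicates, and the 95% Wilson intervals given for shares cover counting error only.

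An lncRNA is a long transcript that is assigned no protein. Assignment rests in large part on the absence of a long open reading frame, since any long sequence holds short frames between an AUG and the next stop codon. Some transcripts first listed as lncRNAs are translated into micropeptides, short proteins made directly from a small frame. Well-known examples in muscle are single-pass membrane peptides that bind the calcium pump of the sarcoplasmic reticulum. Features commonly examined in such frames are the bases around the start codon, a stop codon that closes the frame on its 5′ side, the bias of codon position 3 and a hydrophobic stretch long enough to cross a membrane. None of these shows translation, and no ribosome or protein measurement was used here.

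The frames themselves are shown first for the members on which the description below turns. The first 3 were chosen for size, with the start and the stop codon in capitals. TCONS_00101665 has one of the 12 frames of 99 codons, TCONS_00214174 the frame that fills the largest share of its record, and TCONS_00081234 the shortest record.
TCONS_00101665: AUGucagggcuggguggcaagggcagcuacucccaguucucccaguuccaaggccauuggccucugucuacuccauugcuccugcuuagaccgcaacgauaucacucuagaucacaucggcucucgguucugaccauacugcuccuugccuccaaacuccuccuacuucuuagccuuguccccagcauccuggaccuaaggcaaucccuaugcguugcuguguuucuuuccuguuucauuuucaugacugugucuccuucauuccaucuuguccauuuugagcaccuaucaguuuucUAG
TCONS_00214174: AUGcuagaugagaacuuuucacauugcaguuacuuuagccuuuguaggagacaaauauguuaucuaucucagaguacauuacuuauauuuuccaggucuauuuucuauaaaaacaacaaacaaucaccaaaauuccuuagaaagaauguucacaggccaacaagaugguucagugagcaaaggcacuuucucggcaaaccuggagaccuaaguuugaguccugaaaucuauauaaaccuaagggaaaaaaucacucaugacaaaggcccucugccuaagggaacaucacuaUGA
TCONS_00081234: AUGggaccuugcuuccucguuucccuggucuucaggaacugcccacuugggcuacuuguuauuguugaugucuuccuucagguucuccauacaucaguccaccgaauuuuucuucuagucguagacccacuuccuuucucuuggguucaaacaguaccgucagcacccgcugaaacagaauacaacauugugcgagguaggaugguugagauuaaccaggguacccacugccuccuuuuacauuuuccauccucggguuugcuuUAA

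A second set shows frames with hydrophobic segments or repeated in several members, again with start and stop codon in capitals. The frame of TCONS_00209794 was found letter for letter in 3 members, TCONS_00235978 has a peptide of alternating cysteine and valine over much of its length, and TCONS_00065416 encodes a hydrophobic C-terminal stretch without a repeat.
TCONS_00209794: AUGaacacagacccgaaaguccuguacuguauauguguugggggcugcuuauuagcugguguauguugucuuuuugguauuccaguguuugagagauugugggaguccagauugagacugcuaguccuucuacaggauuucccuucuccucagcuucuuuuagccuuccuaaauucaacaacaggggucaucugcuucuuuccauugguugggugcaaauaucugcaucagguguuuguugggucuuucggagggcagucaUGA
TCONS_00235978: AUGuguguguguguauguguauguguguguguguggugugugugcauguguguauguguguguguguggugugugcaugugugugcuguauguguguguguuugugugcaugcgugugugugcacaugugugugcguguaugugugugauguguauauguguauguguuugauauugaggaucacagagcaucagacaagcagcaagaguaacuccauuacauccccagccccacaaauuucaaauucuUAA
TCONS_00065416: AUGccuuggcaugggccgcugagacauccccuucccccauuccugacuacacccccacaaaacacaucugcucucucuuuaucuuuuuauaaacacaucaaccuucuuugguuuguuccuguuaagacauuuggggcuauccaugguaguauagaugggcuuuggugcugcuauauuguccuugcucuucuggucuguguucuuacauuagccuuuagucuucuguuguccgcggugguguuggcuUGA

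The frame of TCONS_00168434, also present in 3 members, has both bases of a favourable start context. It is printed with the 6 bases before its AUG, and the capitals mark the base at position -3, the AUG and the base at +4, counted from the A of the AUG as 1.
TCONS_00168434: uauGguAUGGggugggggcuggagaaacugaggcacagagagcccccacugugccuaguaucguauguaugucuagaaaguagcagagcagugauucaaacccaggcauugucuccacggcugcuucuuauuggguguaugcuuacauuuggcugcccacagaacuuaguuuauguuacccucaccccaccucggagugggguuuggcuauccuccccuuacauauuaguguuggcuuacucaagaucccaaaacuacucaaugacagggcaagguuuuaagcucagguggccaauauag

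In the next set the capitals mark tandem repeats, defined as a unit of 1 to 6 bases repeated without a mismatch over 18 bases or more. TCONS_00065255 holds the longest run of a dinucleotide in a member frame, TCONS_00183803 the most repeat bases, TCONS_00154727 a run that passes from CU to GU, and TCONS_00090857 runs of AG and AU.
TCONS_00065255: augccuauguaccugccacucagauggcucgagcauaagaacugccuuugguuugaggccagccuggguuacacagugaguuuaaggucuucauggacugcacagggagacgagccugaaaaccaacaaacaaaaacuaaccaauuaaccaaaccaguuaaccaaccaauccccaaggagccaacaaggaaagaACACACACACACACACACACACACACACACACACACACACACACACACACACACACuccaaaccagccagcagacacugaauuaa
TCONS_00183803: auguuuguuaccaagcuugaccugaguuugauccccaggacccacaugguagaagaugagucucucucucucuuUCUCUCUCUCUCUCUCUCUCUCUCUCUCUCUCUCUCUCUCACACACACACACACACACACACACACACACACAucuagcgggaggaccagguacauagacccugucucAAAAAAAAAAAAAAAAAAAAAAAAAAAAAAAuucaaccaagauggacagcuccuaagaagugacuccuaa
TCONS_00154727: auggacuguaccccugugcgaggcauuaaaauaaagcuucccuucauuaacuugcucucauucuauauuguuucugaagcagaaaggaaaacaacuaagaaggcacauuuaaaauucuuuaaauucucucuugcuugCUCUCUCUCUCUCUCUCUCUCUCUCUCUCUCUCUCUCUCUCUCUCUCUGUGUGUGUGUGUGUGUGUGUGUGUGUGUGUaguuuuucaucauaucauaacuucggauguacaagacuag
TCONS_00090857: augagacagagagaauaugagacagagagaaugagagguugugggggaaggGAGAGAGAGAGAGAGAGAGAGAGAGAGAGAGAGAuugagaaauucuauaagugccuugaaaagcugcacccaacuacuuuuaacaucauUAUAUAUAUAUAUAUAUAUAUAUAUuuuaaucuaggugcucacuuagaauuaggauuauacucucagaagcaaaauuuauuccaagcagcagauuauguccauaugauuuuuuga

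The last set has start and stop codon in capitals. The frames of TCONS_00199891 and TCONS_00128343 overlap a stretch that could be placed on the genome.
TCONS_00199891: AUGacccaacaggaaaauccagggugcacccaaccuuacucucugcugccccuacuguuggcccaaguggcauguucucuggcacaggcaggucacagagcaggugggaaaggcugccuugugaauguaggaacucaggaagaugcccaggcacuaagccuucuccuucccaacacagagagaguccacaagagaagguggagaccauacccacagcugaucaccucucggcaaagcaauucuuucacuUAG
TCONS_00128343: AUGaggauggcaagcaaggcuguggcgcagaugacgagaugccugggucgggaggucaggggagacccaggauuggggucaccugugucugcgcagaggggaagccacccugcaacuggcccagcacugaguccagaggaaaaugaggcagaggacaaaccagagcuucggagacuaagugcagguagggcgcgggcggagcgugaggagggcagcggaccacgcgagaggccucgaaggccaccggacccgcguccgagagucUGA

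The number of records fell with frame length across the member range. There were 273 members with 80 to 84 codons, 194 with 85 to 89, 125 with 90 to 94 and 117 with 95 to 99, with a median of 86 codons. At the lower limit, 56 members had 80 codons and 61 records just outside had 79 under the same complement condition. At the upper limit, 12 members had 99 codons and 0 of 8040 records had 100 or more. On the reverse complement no such edge was present. Over all records its longest frame had 95 to 99 codons in 176 and 100 to 104 codons in 127. The complement condition removed 122 of the 831 records with a frame of 80 to 99 codons. Just inside that limit 9 members had a complement frame of 99 codons, and just outside 10 records had one of 100.

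**Figure D1:**
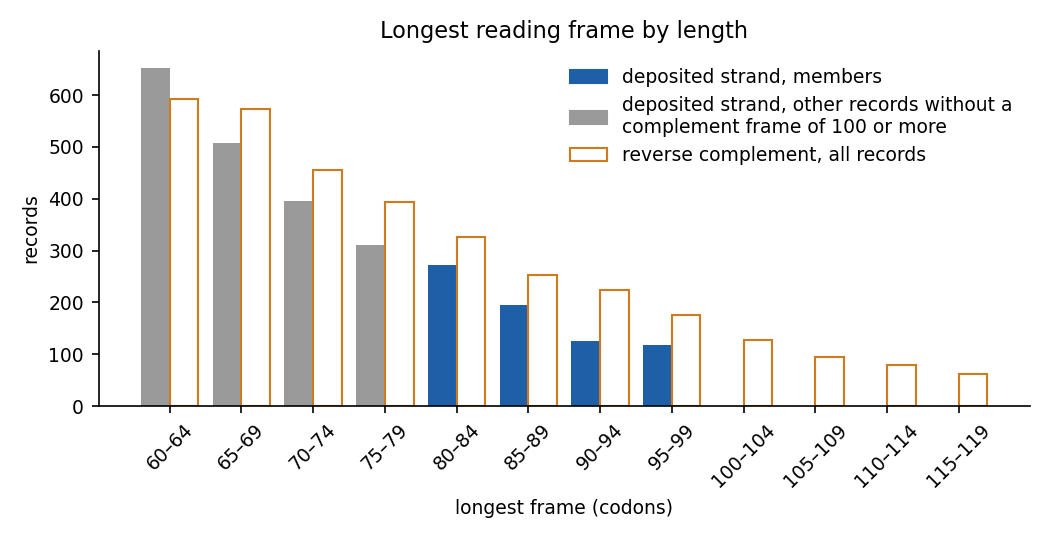
Number of records (y axis) by length of the longest frame in codons (x axis), for the deposited strand of records without a complement frame of 100 codons or more (filled bars, members in blue) and for the reverse complement of all records (open bars). The deposited strand falls from 117 records at 95 to 99 codons to 0 above, while the complement has 176 and then 127.

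Members were longer than the remaining records. Their length was 1440 nt at the median (range 461 to 10118), against 1278 nt for the 1866 records with a longest frame of 60 to 79 codons under the same complement condition and 1117 nt for all 8040. The share of records that were members rose from 2.25% (95% interval 1.59 to 3.17) below 750 nt to 8.87% (7.89 to 9.95) from 1000 to under 1500 nt and 30.6% (25.5 to 36.2) at 3000 nt or more. Per length of sequence the rise ended near 1000 nt. There were 3.797 members per 100 kb of deposited sequence below 750 nt and 5.71 from 750 to under 1000 nt, then 7.28, 7.87, 6.74 and 7.20 in the 4 longer bands. TCONS_00034842, the longest record of all, was a member of 10118 nt with a frame of 94 codons near its 3′ end, after 196 upstream start codons. TCONS_00081234, the shortest member at 461 nt, had a frame of 88 codons.

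GC content differed less. It had a median of 42.6% in the members (SD 5.34), 42.1% in the class of 60 to 79 codons and 41.6% in all records. Members made up 4.76% of records below 35% GC and 10.8% of records at 50% GC or more. Per 100 kb the number of members increased through all 5 bands of GC content, from 3.76 to 5.68, 7.28, 8.19 and 10.6.

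**Figure D2:**
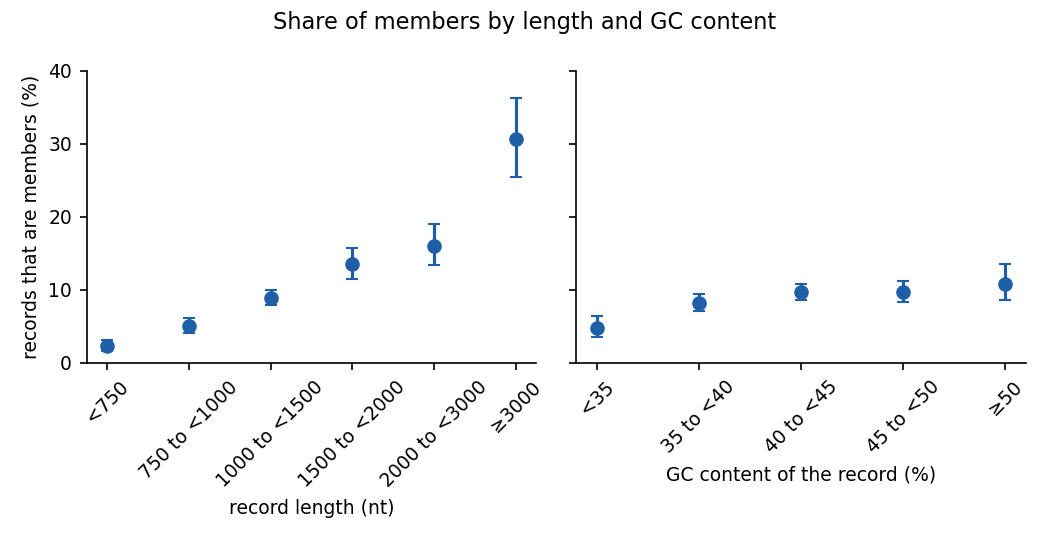
Percent of records that were members (y axis) by record length in nt (left) and GC content in percent (right). Points are shares and bars 95% Wilson intervals; the share goes from 2.25% to 30.6% over the length bands and from 4.76% to 10.8% over the GC bands.

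Within the record the frame took up a small part. It covered 18.4% of the record at the median, with 549 nt before it and 601 nt after it, and its midpoint lay 47.7% of the way along. With each record cut into 3 equal segments, the midpoint fell in the first segment in 225 members, the middle one in 290 and the last one in 194. These were 31.7%, 40.9% and 27.4% of the members, close to 32.1%, 39.7% and 28.2% of all records with a frame. Only 3 members (0.423%) had a frame of 50% or more of the record. The share was 0.161% in the class of 60 to 79 codons and 0.112% of all records with a frame, where frames are mostly shorter. The 3 members were TCONS_00214174 with 63.1% of 466 nt, TCONS_00081234 with 57.9% of 461 nt and TCONS_00234117 with 50.8% of 555 nt. In TCONS_00214174 the stop codon ended 2 nt before the end of the record. A median of 9 AUG codons preceded the start of the frame, and 53 members (7.48%) had none. The class of 60 to 79 codons also had a median of 9, with none in 7.02%. All records with a frame had a median of 7, with none in 8.90%. In translation by scanning, the ribosome commonly begins at an AUG near the cap, so the number of upstream AUG codons is one measure of how accessible a frame is.

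Most of the frames were closed on the 5′ side. An in-frame stop codon lay upstream of the start in 658 members (92.8%, 95% interval 90.7 to 94.5), against 94.3% in the class of 60 to 79 codons and 93.3% of the 8031 records that had any frame. In the other 51 members the frame was open to the 5′ end of the record, with a median of 27 nt before the AUG, so their true start may lie outside the deposited sequence. TCONS_00081234 was one of these, with 122 codons free of stops up to its stop codon. The stretch without a stop before the frame was often longer than the frame. Counted back to the previous in-frame stop or to the end of the record, it had 100 codons or more in 295 members (41.6%), against 7.396% of the class of 60 to 79 codons, whose frames are shorter by selection. The longest were 170 codons in TCONS_00131146, 167 in TCONS_00215251 and 160 in TCONS_00009674, all with frames of 80 to 95 codons. CUG is the non-AUG codon at which initiation is best known. Starting from the first in-frame CUG upstream, 61 members (8.60%) had 100 codons or more up to the stop, against 27 of 1866 records (1.45%) in the shorter class. Frames of the shorter class need more added codons to reach 100, so this contrast follows in part from the rule. It does not show that member frames extend to a CUG more often. The share was 1.71% of all records with a frame. It was 14.8% of the 122 records within the member length limits that the complement condition removed.

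The longest frame usually stood well above the next one in the record. The second-longest frame had a median of 58 codons, against 49 in the class of 60 to 79 codons and 38 in all records. The gap between the longest and the second was 30 codons at the median, against 18 and 11. Members were selected on the length of the longest frame, so a wider gap follows in part from the rule. In 64 members (9.03%) the second frame also had 80 codons or more. The share was 1.01% of all records with a frame, where even the longest frame is mostly shorter. The class of 60 to 79 codons can have no such frame by its definition. Of the 122 records that the complement condition removed, 13.9% had one. On the reverse complement the longest frame had 80 to 99 codons in 167 members (23.6%, against 17.5% in the shorter class and 12.2% of all records). It overlapped the main frame in 58 of these 167 members. The overlap was present in 127 of 327 such records in the shorter class and 379 of 978 over all records. The complement frame was longer than the frame that made the record a member in 83 (11.7%), against 33.5% in the shorter class and 56.8% of all records, where the main frame is mostly shorter. The rule sets the member frame at 80 codons or more and the complement frame below 100, so a low share follows in part from it. Over all records the complement frame has no upper limit. It was necessarily the longer one in all 122 records that the complement condition removed.

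The bases around the start codon were close to those of the shorter frames. A purine at -3 and a G at +4 favour recognition of an AUG in mammals. A purine at -3 was present in 329 members (46.4%, 95% interval 42.8 to 50.1), against 48.8% in the class of 60 to 79 codons and 49.5% of all records with a frame. G at +4 was present in 185 (26.1%, against 25.5% and 25.1%). Both occurred together in 88 members (12.4%, 10.2 to 15.0), against 13.0% and 13.2%. Among the 88 were the 3 members with the frame shown for TCONS_00168434, and 0 of the 12 members of 99 codons. The stop codon was UGA in 254 members (35.8%), UAA in 245 (34.6%) and UAG in 210 (29.6%). In the class of 60 to 79 codons the shares were 40.1% UGA, 32.9% UAA and 27.0% UAG.

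Codon composition showed little dependence on position. In mammalian coding sequence codon position 3 often departs in GC content from positions 1 and 2. GC content in the members was 45.9% at position 1, 44.4% at position 2 and 44.2% at position 3 (means over 709 frames, SD 8.10, 8.22 and 8.12), and position 3 minus the mean of the other positions was -0.908 percentage points with an SD of 6.70 between members. The class of 60 to 79 codons had 45.3%, 43.7% and 43.8%. The frame was richer in GC than the rest of its record in 451 members (63.6%), with means of 44.4% inside and 42.5% outside. The shorter class had the frame richer in 64.0%.

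The predicted peptides were rich in leucine (11.7% of 61258 residues, the start methionine left out) and serine (10.1%), which are each encoded by 6 of the 61 sense codons (9.84%). Arginine, also with 6 codons, made up 5.78%. Each of the 20 residues lay close to its share in the class of 60 to 79 codons. The differences farthest from 0 were -0.251 for asparagine and -0.231 for isoleucine. Basic residues (lysine and arginine, 10.6%) outnumbered acidic ones (aspartate and glutamate, 6.01%), as in the shorter class with 10.6% and 6.36%. Counted by peptide, 570 members (80.4%) had more basic than acidic residues, with a median excess of 4, against 73.7% with a median of 3 in the shorter class. The excess is a count of residues, and the peptides of the members are longer by selection. Of the members, 24 (3.39%) had no cysteine, against 7.93% in the shorter class and 17.3% of all records with a frame, whose peptides are mostly shorter.

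A predicted hydrophobic segment was taken as a window of 19 residues with a mean hydropathy of 1.6 or more on the Kyte-Doolittle scale, on which hydrophobic residues are positive. At least one such window was present in 168 members (23.7%, 95% interval 20.7 to 27.0), against 18.7% of the class of 60 to 79 codons and 13.7% of all records with a frame. Longer frames offer more windows, and counted by window the order was the other way. Of the 49205 windows of the members 2.22% reached 1.6, against 2.45% of the 93142 windows in the shorter class. The 2 other reading frames of the same stretches, read between their stop codons, reached it in 3.10% of 36268 windows. Of the 168 members, 144 had no tandem repeat in the frame. In 31 of the 168 the most hydrophobic window began in the first 10 residues, where a signal peptide or an N-terminal anchor would lie. These 31 were 4.37% of all members, close to 4.18% in the shorter class and 4.26% of all records with a frame. In 44 of the 168 the window began at residue 55 or later.

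The highest mean was 3.22 in TCONS_00011891, whose window of residues 38 to 56 held 7 leucines, 5 valines and 5 cysteines and overlapped a GU run of 32 nt. TCONS_00235978 came next with 3.01 at residues 3 to 21, and its peptide of 83 residues held 22 cysteines and 20 valines. Its frame consisted largely of interrupted UG repeats, which the definition of a tandem repeat did not take in, and it had no in-frame stop upstream. TCONS_00076582 followed with 2.88 at residues 19 to 37, where 9 cysteines and 7 valines lay over a GU run of 40 nt. In these 3 members the window overlapped repeats of G and U. TCONS_00065416, chosen after the values were seen, reached 2.85 without one. Its window of residues 59 to 77 held 8 leucines and 3 valines, close to the C-terminus of the 82 residues. TCONS_00209794 and the 2 members with the same frame had a mean of 2.47 at residues 7 to 25, with 5 cysteines and 4 leucines.

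Tandem repeats were present in 51 member frames (7.19%, 95% interval 5.51 to 9.33), against 5.04% in the class of 60 to 79 codons and 3.64% of all records with a frame. By base they took up 0.972% of the member frames and 0.595% of the remaining sequence of the same records, against 0.823% and 0.559% in the shorter class. Dinucleotide units accounted for 30 members, units of 4 to 6 bases for 20, and units of 1 and of 3 bases for 2 each. AC was the unit in 19 members, CU and GU in 6 each, AG in 3 and AU in 1. A dinucleotide repeat free of stop codons has no stop in any frame and reads as an alternation of a pair of residues. AC runs read as histidine and threonine, GU runs as cysteine and valine, CU runs as leucine and serine, and AG runs as arginine and glutamate.

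The peptides followed the unit. TCONS_00065255, with an AC run of 56 nt, had 17 threonines and 10 histidines among 92 residues and a highest hydropathy mean of 0.35. TCONS_00154727 had 78 repeat bases in a frame of 255 nt, and its window of residues 56 to 74 across the CU and GU runs reached 2.81 with 6 valines and 5 cysteines. TCONS_00183803 had 104 repeat bases of CU, AC and A in a frame of 252 nt, with 14 leucines, 14 serines and 11 lysines. TCONS_00090857 had 59 repeat bases of AG and AU, with 12 glutamates and 10 arginines. All 6 members with a GU repeat had a hydrophobic segment, as did 5 of 6 with a CU repeat and 5 of 19 with an AC repeat. Words of 25 bases found in 20 or more of the 8040 records occurred in 27 member frames (3.81%), and 25 of these 27 had a tandem repeat. The shorter class had such words in 2.41%, with a tandem repeat in 41 of 45. All records with a frame had them in 1.93%, with a tandem repeat in 136 of 155.

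**Figure D3:**
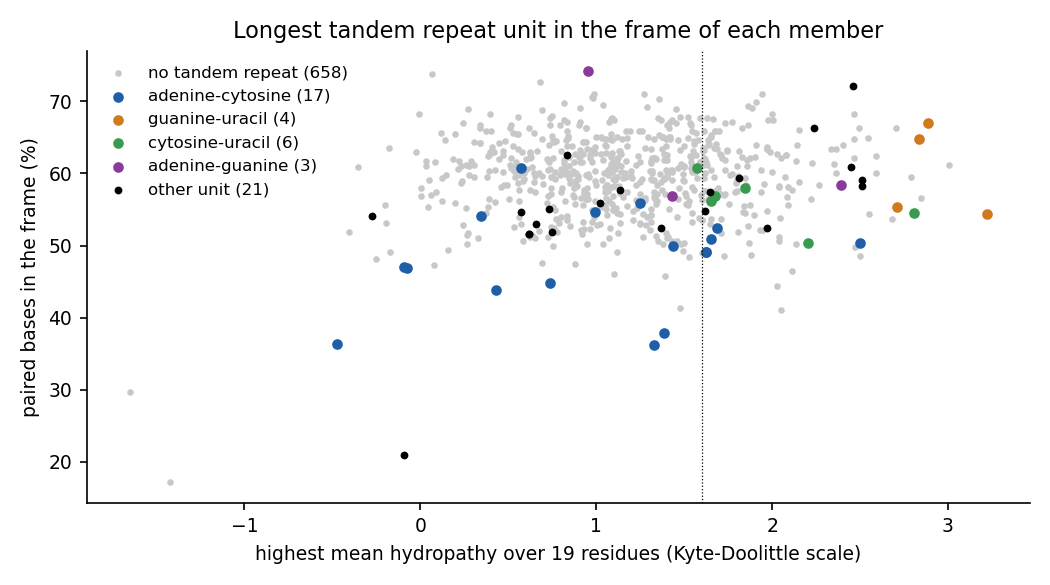
Each point is a member, with the highest mean hydropathy over 19 residues (x axis, Kyte-Doolittle scale; dotted line at 1.6) against the percent of bases in the frame that are paired in the deposited structure (y axis, starting above 0). Colours give the unit of the longest tandem repeat, none in 658 members; frames with a guanine-uracil unit lie to the right of the line and several with an adenine-cytosine unit lie low.

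In the deposited structures the frame was paired about as much as the rest of the record. The share of paired bases was 59.3% ± 6.00 inside the frame and 58.97% ± 3.07 outside (mean ± SD over 709 members). The difference of 0.284 percentage points was small beside its SD of 6.18, and the frame was the more paired part in 380 members (53.6%). The class of 60 to 79 codons had 59.2% and 58.8%, with the frame more paired in 54.4%. Frames with a tandem repeat had a lower share, with a median of 54.7% over 51 members against 60.2% over the 658 without. It was 50% over the 19 members with an AC repeat.

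Low shares of paired bases in the frame are given for 5 members, chosen after the values were seen. TCONS_00058655 had 20.9% paired inside the frame and 53.1% outside. Of the bases in its frame 81.4% were A or C, and 61.2% of its 85 codons read as histidine or threonine. The other 4 were TCONS_00064588 with 29.7%, TCONS_00165866 with 36.2%, TCONS_00240338 with 36.4% and TCONS_00066614 with 37.8%. A and C together made up 63.7% to 81.4% of these 5 frames. At the other end TCONS_00199607, which held an AC repeat as well as an AG run of 31 nt, had 74.2% of its frame paired, the highest share in the AC and the AG set alike.

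The start codon was not set apart in the structures. Its bases were paired in 62.5% of cases, against 61.8% for the other AUG codons of the same records. The A was paired in 48.9% of members, the U in 62.3% and the G in 76.2%. The corresponding values were 51.1%, 61.8% and 74.7% over 24676 other AUG codons of the members, and 50.5%, 60.7% and 74.9% in the class of 60 to 79 codons. All 3 bases were free in 109 members (15.4%, against 14.9% and 15.7% for the shorter class and all records). The free energy per 100 nt had a median of -28.7 kcal/mol in the members and -28.3 kcal/mol in the shorter class. In a linear fit on GC content and the logarithm of length over all records, the members had a median residual of 0.13 kcal/mol per 100 nt with an SD of 1.67, against 0.0295 in the shorter class.

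**Figure D4:**
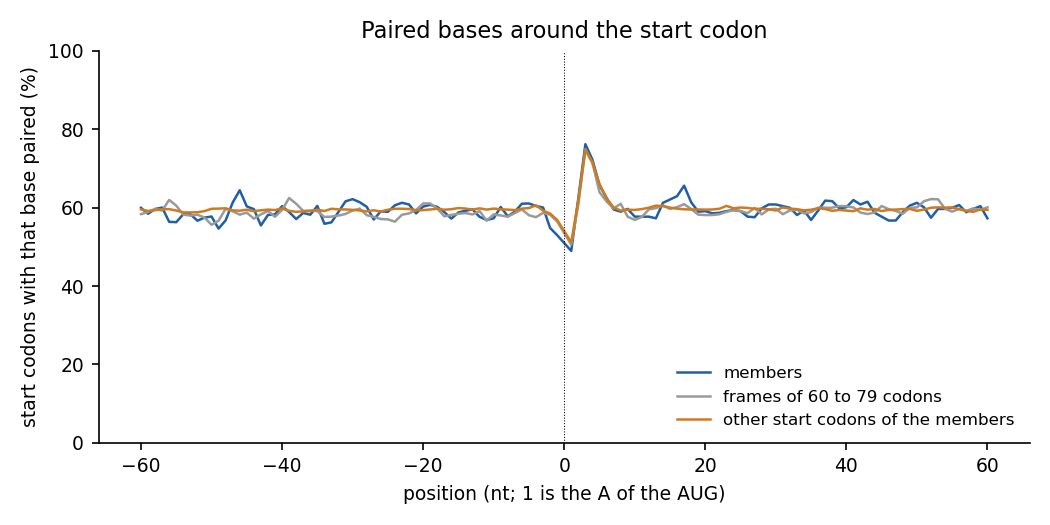
Percent of start codons whose neighbouring base is paired (y axis) by position in nt (x axis, 1 is the A of the AUG), for the frames of the members, the frames of 60 to 79 codons and all other AUG codons of the members. The 3 lines run together near 60%, with 48.9% at the A and 76.2% at the G in the members.

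Some member frames were copies of one another. The 709 members had 662 distinct frames, of which 617 occurred in 1 member, 43 in 2 and 2 in 3. In all, 92 members had a frame found in another member. Counted over all records, the frame of 97 members (13.7%) was also the longest of another record. The share was 12.9% in the class of 60 to 79 codons and 9.79% of all records with a frame. For the 2 frames found in 3 members the sequence around the frame was compared too, and part of it was shared. The frame of 87 codons shown for TCONS_00209794 was the longest frame of TCONS_00208133 and TCONS_00214243 as well. TCONS_00208133 and TCONS_00209794 were identical over 4677 nt, with 2388 nt before the frame and 2025 nt after it. The leader of the 3 members differed in length, from 158 nt in TCONS_00214243 to 4038 nt in TCONS_00209794. The frame of 97 codons shown for TCONS_00168434 was also that of TCONS_00163013 and TCONS_00167656. TCONS_00168434 and TCONS_00167656 were identical over 2376 nt. Whether such records are isoforms of a gene or copies at separate places cannot be told apart without coordinates.

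An exact stretch of 50 bases was shared with at least one other record by 314 members, and with none by 395 (55.7%, against 58.6% of the shorter class and 61.6% of all 8040). Grouped by such stretches among themselves, the members fell into 621 groups, of which the largest had 10. TCONS_00195703, a record of 5291 nt with a frame of 89 codons, was the longest record of that group. TCONS_00022429 (6792 nt, 86 codons) and TCONS_00209794 (6327 nt) were the longest of 2 groups of 6. Over all records, 52 members belonged to a single chained group of 347. Members that share sequence are not independent.

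Positions on the genome came only from the RefSeq gene-start windows of GRCm38.p6, which reach from 250 bases before to 50 bases after each gene start and number 32851. An exact block of 100 nt or more in such a window was found for 9 members and for 108 records in all. The frame itself overlapped the block in TCONS_00128343 and TCONS_00199891. In TCONS_00128343 the block lay at chr2:160730698-160730997, at the start of the lncRNA gene Gm52567, and 181 nt of it fell in the frame of 88 codons, which read against the direction of that gene. Its peptide held 16 arginines. In TCONS_00199891 the block at chr6:126599175-126599474 lay at the start of the lncRNA gene Gm33496, with 112 nt in the frame of 83 codons. A second listed start of the same gene gave a window at chr6:126599185-126599484, with 122 nt in the frame. TCONS_00197204 matched both windows with the block outside its frame of 97 codons.

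In the other 6 placed members the block lay outside the frame. TCONS_00166313 matched the start of Gm32117 at chr4:124736240-124736539, TCONS_00200076 that of Gm30583 at chr6:138873443-138873712, and TCONS_00040957 that of Gm21885, listed as protein-coding, at chr11:94281589-94281888. TCONS_00223104 matched the start of Gm26843 at chr8:93751657-93751956 and TCONS_00047694 that of Gm40443 at chr12:76323115-76323414, both against the direction of the gene. The last 102 nt of TCONS_00242425 lay at chr9:119401928-119402029, at the start of Acvr2b, which encodes an activin type II receptor.

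The orientation of these blocks bears on how every member frame is read. All 9 placed members ran along the plus strand of the chromosome, as did 101 of the 108 placed records, while 5 ran along the minus strand only. Relative to the RefSeq gene, 6 members ran in its direction and 3 against it, and over all records 56 ran with and 50 against. The file does not say whether a deposited sequence is the strand of the transcript or the plus strand of its locus. For a transcript of the minus strand, the frame described here would be antisense to it, and the frame of the RNA would be the one on the reverse complement. The strand of members without a block was not determined. No record held a whole miRNA hairpin of RefSeq.

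The 12 members of 99 codons, the last length before the edge at 100, were not alike. Their records ran from 1071 nt in TCONS_00194486 to 4069 nt in TCONS_00064635, and the leader before the frame from 26 nt in TCONS_00087264 to 3246 nt in TCONS_00101665. In TCONS_00199844 only 11 nt followed the frame. The frame was closed by an upstream stop in 10, and open in TCONS_00087264 and TCONS_00180600. With the stretch before the AUG, the frame was free of stops over 101 codons in TCONS_00064635 and TCONS_00250376, 115 in TCONS_00068720, 120 in TCONS_00199844 and 121 in TCONS_00101665. TCONS_00180600 also had a complement frame of 99 codons, the longest that the rule allowed.

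A hydrophobic segment was predicted in 5 of the 12. TCONS_00101665 had the highest mean, 2.41 at residues 42 to 60 with 10 leucines, and 23 leucines in the whole peptide. TCONS_00064635 reached 2.36 at residues 13 to 31, TCONS_00094817 reached 2.03 at residues 40 to 58, TCONS_00089907 reached 1.79 and TCONS_00068720 reached 1.73. TCONS_00194486 was of the opposite kind, with a highest mean of 0.73 and 18 lysines and arginines. Basic residues outnumbered acidic ones in 11 of the 12, with TCONS_00180600 as the exception. GC content of the frame ran from 31.3% in TCONS_00094817 to 53.7% in TCONS_00180600, and GC content at codon position 3 from 32.7% to 55.1%. Paired bases took up 44.3% of the frame in TCONS_00094817, 46.0% in TCONS_00184765 and 67.0% in TCONS_00068720. TCONS_00167434, with 9 more basic than acidic residues, and TCONS_00101665 belonged to the chained group of 347 records, while 7 of the 12 shared 50 bases with no other record.

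**Figure D5:**
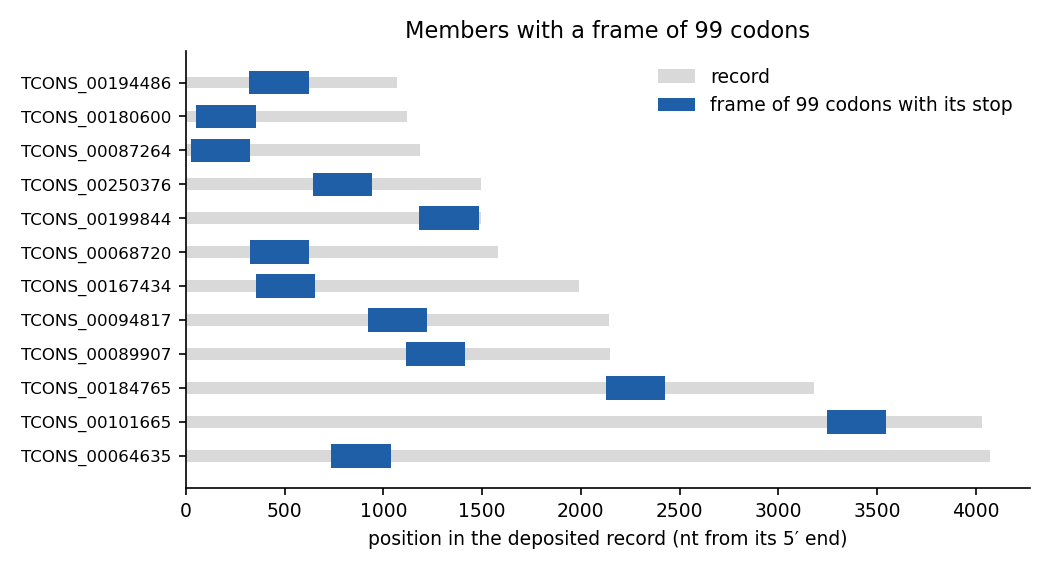
The 12 members with a frame of 99 codons, each drawn as its deposited record (grey) with the frame and its stop codon (blue) at its place; the x axis is the position in nt from the 5′ end of the deposited sequence. Records run from 1071 to 4069 nt, and the frame lies near the 5′ end in TCONS_00087264 and at the 3′ end in TCONS_00199844.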

How the data were processed

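Total RNA of 6 cortex libraries was depleted of ribosomal RNA, sequenced on an Illumina platform and aligned with TopHat2 to mm10, per the submitters' processing notes and the study's methods. For each new lncRNA the authors deposited a sequence, a predicted structure in dot-bracket notation and a minimum free energy, pooled over all libraries. No count or other expression value was used here. The study lists read numbers for a sample representing the control group and a sample representing the SAH group. Depth of each of the 6 libraries was not available here. The folding program was not given in the sources used here. The deposited file gives no strand, and strands that the study lists for some new lncRNAs were not used here. Frames, hydropathy, repeats, pairing and shared words were computed in Python 3.11.15 with numpy 2.4.6, pandas 2.3.3 and scipy 1.17.1, and the frame and repeat functions were tested on simulated data. The members, lists and limits were chosen with earlier results of these data known. Named by rule were all members of 99 codons, the longest and the shortest record, the 3 largest frame shares, the longest record of the 3 largest groups of members and the 3 highest hydropathy means; other names were chosen after their values were seen. A planned match of the peptides to RefSeq proteins was not run, since no protein table was used here. A member withheld for evaluation is not reported here. Alternatives covered the frame limits, the complement condition, closed frames, shared records, the hydropathy limit and the limit on shared words.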

Additional observations from a re-analysis of the deposited data

How the results depend on the processing

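Of 49 recomputed values, 46 stayed within 1.5 times the main count, within the 95% interval of the main share, or within 1 SD of the main value with the same sign. The SD is that between members and most of the sets overlap, so most values were likely to stay within these limits. The limits of 80 to 99 codons set the number of members, which was 242 at 90 to 99 codons. The mean difference in paired bases inside and outside the frame was -0.0278 percentage points at 90 to 99 codons, against 0.284 in the members, a change of sign that was small beside the SD of 6.18 between members. With the longest record of each group sharing 50 and 100 bases the difference was 0.0756 and 0.0273 percentage points (both within 1 SD). A hydropathy limit of 1.8 in place of 1.6 left 14.2% of members with a hydrophobic segment. The number of members was 831 without the complement condition, 658 with closed frames only, 1020 at 75 to 99 codons, and 530 and 576 with the longest record of each group sharing 50 and 100 bases. The alternatives for a protein match were not run. No paired analysis was possible because the deposited file holds no value per library, so that no change after SAH, abundance or replicate error was computed here for any member.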
